A study of Mus musculus with 6 samples.

Results

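Dicer KO cells were set against Dicer WT cells gene by gene, in exonic and in intronic reads of total RNA. Genes entered if their normalised counts averaged 50 or more over both groups, which held for 10706 of 23227 genes in exonic reads, for 10215 of 23231 in intronic reads and for 9402 in both. Both groups were untreated mouse mesenchymal stem cells (fibroblasts in another label field), grown as immortalized lines that each came from 1 cell. The WT line carried floxed Dicer alleles (Dicer f/f) and the KO line was Dicer -/-. The method of immortalization, like the Cre that removed the floxed part, is not given in the sources used here. Since each genotype is 1 clone, genotype and clone cannot be told apart. The series also holds WT cells given Pbx3, Sox9 or Tead4, or the vector alone, which are used here only for values set side by side.

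Dicer cuts hairpin precursors into mature microRNAs, short RNAs that guide Argonaute proteins to matching sites, mostly in the 3′ untranslated region (UTR) of mRNAs. Guided mRNAs are translated less and decay faster, so the action falls on spliced mRNA in the cytoplasm and not on the unspliced RNA that gives most intronic reads. A difference in intronic reads therefore mostly reflects how much RNA is made, and a difference in exonic reads reflects making and decay together. In mesenchymal stem cells, microRNAs are known to act in the choice between bone, fat and cartilage fates and in the making of matrix.

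The labels list 1 sample per group, but each group mean came from 2 libraries, whose reads could be recovered. They are called WT library 1, WT library 2, KO library 1 and KO library 2, and 4 values given for a gene are its normalised counts in that order. Exonic reads numbered 18517189 to 23501655 a library and intronic reads 8880503 to 10205497, so that 28.7% to 32.4% of gene reads were intronic. A change is a limma log2 fold change, KO against WT, with its standard error from 2 libraries a group. A gene is said to have risen, fallen or changed where its limma adjusted p was under 0.05. The labels do not say if the libraries of a group are separate cultures. The p-values thus measure the spread between these libraries alone, and that spread may be technical.

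Dicer1 itself had 1407, 1343, 935 and 1067 normalised exonic counts. Both KO libraries lay below both WT libraries, and the change of −0.46 ± 0.14 did not pass (limma adjusted p = 0.0859). In intronic reads the change was −0.13 ± 0.14 (limma adjusted p = 0.619). A total over all of Dicer1 does not resolve single exons and is no check of the knockout. Of 28 mesenchymal stem cell markers, 24 reached the minimum, with summed levels of 250099, 231596, 191983 and 201686, while Thy1 had no exonic read in any library. Of 28 blood and immune cell markers, 1 reached the minimum, and Ptprc, which marks all nucleated blood cells, had no exonic read. Of 20 endothelial markers 3 did, of 28 epithelial markers 1, of 30 neural and glial markers 5 and of 34 pluripotency and germ cell markers 2. The summed neural and glial level was 2095, 1911, 1134 and 780, and in WT cells Nes, a filament of progenitors, and Mtap2, a protein of neuronal microtubules, made up most of it. Mtap2 had 847, 755, 30.3 and 15.5 counts and fell by 5.14 ± 0.37, so the neural sum moves with genotype. Its part in the results below was not tested. The data are bulk values, in which fewer cells of a type and less RNA per cell cannot be told apart.

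Most genes differed little between the clones and a minority differed by large factors. Over the 10706 genes the log2 ratio of the group means had a median of 0.01, quartiles of −0.32 and 0.34 and a range of −8.94 to 8.97. At least 2-fold apart were 1336 genes (12.5%), 628 higher and 708 lower in KO. At least 4-fold apart were 177 higher and 263 lower, and at least 16-fold apart 36 higher and 88 lower. The 2 WT libraries differed 2-fold or more for 479 genes and the 2 KO libraries for 310. The standard deviation of the log2 ratio over genes was 0.95 between the clones, 0.47 between the WT libraries and 0.40 between the KO libraries. In intronic reads 909 genes (8.9%) were at least 2-fold apart, 377 higher and 532 lower, with a standard deviation of 0.77 against 0.47 and 0.37 between libraries.

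By limma, 994 genes rose in exonic reads (9.28%) and 788 fell (7.36%), while 292 rose in intronic reads (2.86%) and 373 fell (3.65%). In 6773 genes (63.3%) of the exonic table and 5876 (57.5%) of the intronic table the KO libraries did not overlap the WT libraries, so a lack of overlap is common here and is given for single genes only as a description. The exonic calls numbered 1782 with all libraries, 535 without KO library 1 and 597 without KO library 2. Intronic calls then numbered 162 and 223, against 665. In these fits the lone KO library is assumed to vary like the WT libraries. Of the 1782 exonic calls, 766 were under 2-fold, so small differences were called where the libraries were close. The 95% confidence interval lay within 1.5-fold on both sides for 2326 genes (21.7%) in exonic and 2374 (23.2%) in intronic reads. For the remaining genes without a call, the data do not show that the clones are alike.

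In exonic reads the balance of higher and lower genes varied between levels. Of 1490 genes with a mean of 50 to 200 normalised exonic counts, 32.0% were at least 2-fold apart, 171 higher and 306 lower in KO. Of 4299 genes with a mean of 1000 to 5000, 6.49% were, 170 higher and 109 lower. Among the first, 13.2% fell and 7.45% rose, and among the second 5.14% fell and 10.5% rose. The other levels were near balance at 2-fold, with 258 higher and 263 lower at 200 to 1000 and 29 and 30 at 5000 or more. By limma 8.47% rose and 7.93% fell at 200 to 1000, and 10.4% and 5.72% at 5000 or more. In intronic reads lower genes outnumbered higher ones at every level, with 231 against 169 at 50 to 200 and 65 against 48 at 1000 to 5000. A gene near 0 in 1 clone can reach the minimum through the other, and 16 genes had at most 3 exonic reads over both KO libraries against 4 over both WT libraries.

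**Figure D1:**
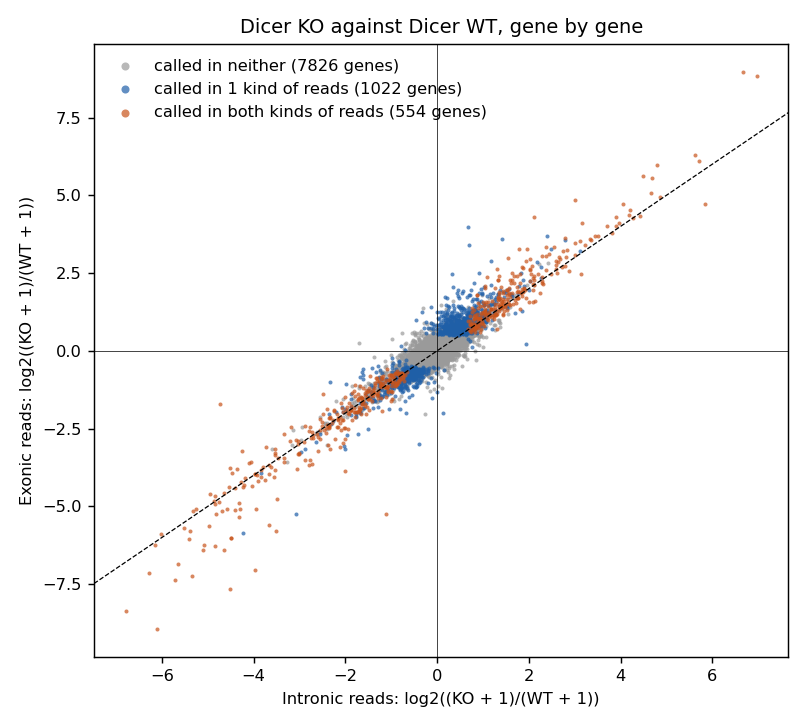
Log2 ratio of the KO and WT group means, with 1 added, in intronic (x axis) and exonic reads (y axis) for 9402 genes, each point a gene; the dashed line marks equal ratios. Of these genes, 554 were called by limma in both kinds of reads, 1022 in 1 kind and 7826 in neither, and no point called in both lies in a quadrant of opposite signs.

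The plot of exonic against intronic ratios shows that genes which differed in exonic reads mostly differed the same way in intronic reads. Of 894 genes that rose in exonic reads and were measured in both, 880 were also higher in intronic reads, with a median of 0.98 in exonic and 0.68 in intronic reads. Of 627 that fell, 623 were also lower, with medians of −1.14 and −1.01. Called in both kinds of reads were 257 genes that rose and 297 that fell, which make up all 554 genes called in both. In exonic reads only, 637 rose and 330 fell. In intronic reads only, 15 rose and 40 fell. The median exonic minus intronic difference was 0.13 in 237 genes whose intronic log2 ratio lay between 1 and 2, which widens their rise in exonic reads. It was 0.24 in 71 genes between 2 and 4. It was 0.05 in 285 genes whose intronic log2 ratio lay between −2 and −1, −0.04 in 131 genes between −4 and −2 and −0.31 in 49 genes below −4, where the loss was wider in exonic reads.

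The exonic minus intronic change of a gene was tested within libraries. It rose for 523 genes (5.56%) and fell for 134 (1.43%) of 9402. Among the 894 genes that rose in exonic reads it rose for 248 and fell for 2, and among the 627 that fell it fell for 49 and rose for 11. Which intronic library belongs to which exonic library is not given in the tables. Libraries whose differences within a group pointed the same way were paired, and under the opposite pairing limma called 0 genes, with 129 at an unadjusted p under 0.05. The size of a gene's exonic minus intronic change does not depend on the pairing. Without KO library 2, 350 genes were called.

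The sites at which microRNAs act were then counted in the 3′ UTR of each gene. The sequences are the mature microRNAs, 5′ to 3′, of the families with the largest and smallest contrast described here and of 3 families known from other tissues, as RefSeq gives them for GRCm38.p6. Capitals mark the seed, bases 2 to 8, which pairs with the target.
let-7a-5p: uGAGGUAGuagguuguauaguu
miR-19b-3p: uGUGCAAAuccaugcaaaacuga
miR-30a-5p: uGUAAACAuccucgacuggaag
miR-16-5p: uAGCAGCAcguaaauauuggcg
miR-24-3p: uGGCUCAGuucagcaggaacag
miR-10b-5p: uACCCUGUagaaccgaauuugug
miR-9-5p: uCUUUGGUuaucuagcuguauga
miR-208a-3p: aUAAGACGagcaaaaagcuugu
miR-200b-3p: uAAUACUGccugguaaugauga
The first 6 belong to families of stromal cells. miR-9 is known from brain, miR-208a from heart muscle and miR-200b from epithelia. No 2 of the 9 share a seed. A site was the reverse complement of the seed on the sense strand, for let-7 CTACCTC. Also counted was that match without its first base but followed by an A, for let-7 TACCTCA. The longer form, for let-7 CTACCTCA, holds both and was counted once. The longest 3′ UTR of the basic protein-coding transcripts of GENCODE M21 (GRCm38) was read, which 9262 of the 9402 genes had. The levels of the microRNAs themselves were not measured here.

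Genes with let-7 sites had more exonic RNA relative to intronic RNA in KO cells, the more sites the more. A let-7 site was held by 1637 of the 9262 UTRs. The median exonic minus intronic change was 0.01 in 7625 genes with no site, 0.10 in 1322 genes with 1 site, 0.11 in 250 genes with 2 and 0.37 in 65 genes with 3 or more. In these 4 classes it rose for 3.87%, 11.6%, 16.8% and 43.1% of genes by limma, beside 5.56% of all genes. Median intronic changes were 0.01, 0.02, 0.09 and 0.21, so genes with 3 or more sites were also higher in intronic reads. Across the 4 pairs of a KO with a WT library, the median of genes with a site exceeded that of genes without by 0.09 to 0.11.

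UTR length moved with the number of sites. The median length was 1061 bases with no let-7 site, 2283 with 1, 3508 with 2 and 4989 with 3 or more. Among genes split evenly into short, middle and long UTRs, the excess of genes with a let-7 site was 0.08, 0.07 and 0.06, against 0.09 over all genes. Genes without a let-7 site had medians of −0.02, 0.01 and 0.07 in these classes, so the exonic minus intronic change also moved with UTR length where no let-7 site was found. The excess was positive for all 19 stromal families tested, let-7 among them, from 0.03 for miR-10 and 0.04 for miR-24 upward. It reached 0.08 for miR-15/16, miR-30 and miR-19 and 0.09 for let-7. It was also positive for the 3 families of other tissues, at 0.05 for miR-9 and miR-208 and 0.06 for miR-200b. The values of the families of other tissues thus lay within the range of the stromal families, and the difference between the classes was not tested. Summed over the 19 stromal families, the median went from −0.04 in 1166 genes with no site to 0.18 in 336 genes with 20 or more, while the median UTR grew from 241 to 6122 bases.

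**Figure D2:**
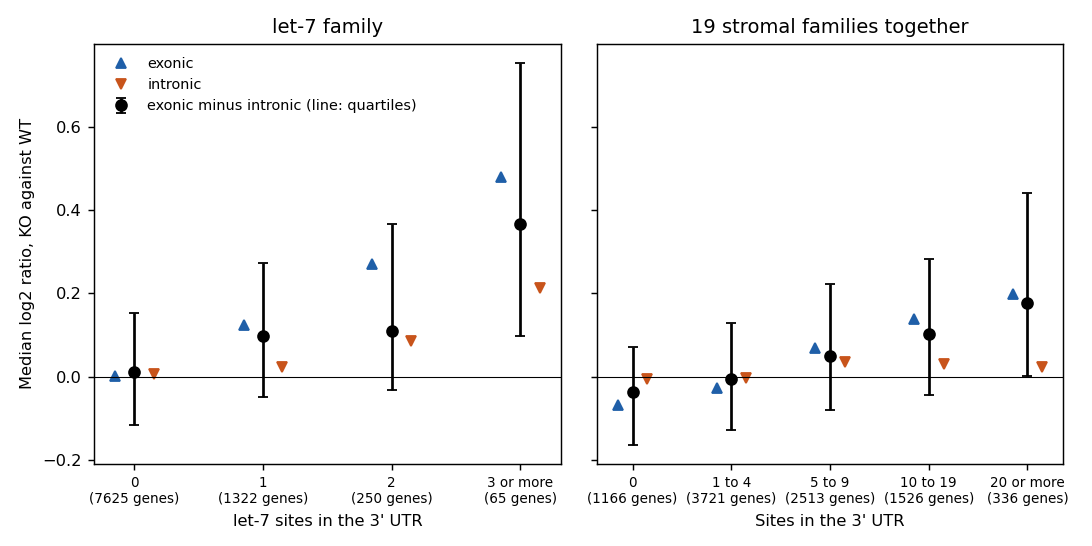
Median log2 change, KO against WT, of genes grouped by the number of let-7 sites (left) or of sites of 19 stromal families (right) in the 3′ UTR; circles are exonic minus intronic changes with a line from the lower to the upper quartile, triangles the exonic and intronic medians. The circle climbs from 0.01 to 0.37 on the left and from −0.04 to 0.18 on the right, while the intronic medians stay between 0.00 and 0.21.

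Of the 65 genes with 3 or more let-7 sites, 28 rose in exonic relative to intronic reads by limma. The genes of this class named next were chosen after their values were seen. Zfp568, a KRAB zinc finger repressor of early development, has 4 sites and had 1752, 1279, 6350 and 6302 normalised exonic counts. It rose by 2.08 ± 0.18 in exonic reads, with all KO values above all WT values, while its intronic change of 0.35 ± 0.17 did not pass. Its exonic minus intronic change was 1.73 ± 0.09 (limma adjusted p = 2.65e-05).

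Prtg, a receptor of the immunoglobulin superfamily found in early embryos, has 4 sites and stood at 713, 970, 3819 and 5538 exonic counts. Its exonic change was 2.47 ± 0.25 and its intronic change 0.32 ± 0.18. Hif1an, the hydroxylase that holds back the hypoxia factor HIF1, has 5 sites and stood at 1694, 1808, 6493 and 6255 counts. It rose by 1.86 ± 0.12 in exonic reads, while its intronic change was 0.54 ± 0.16. Fign, a microtubule-severing ATPase, has 6 sites and stood at 248, 330, 699 and 899 exonic counts, with an exonic minus intronic change of 1.12 ± 0.11. In these 3 genes, too, the KO libraries did not overlap the WT libraries. The exonic call of Fign was lost without KO library 2 (limma adjusted p = 0.0765), while its exonic minus intronic call was lost under no omission of a library.

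Sites did not always go with an exonic gain. Pappa, a secreted protease that frees IGF from its binding proteins, has 3 sites, yet fell by 3.15 ± 0.39 in exonic reads, from 3703 and 1740 to 239 and 338. Its intronic reads were lower by more, at −4.11 ± 0.47, and its exonic minus intronic change was 0.96 ± 0.13 (limma adjusted p = 0.00319). Arid3b, a DNA-binding protein with 5 sites, had 94.3, 138, 259 and 302 exonic counts and 209, 278, 179 and 209 intronic counts, higher in KO in the first and not above WT in the second. Its exonic minus intronic change was 1.60 ± 0.17. Igf1r, the IGF-1 receptor, has 3 sites and did not pass in exonic reads, at 0.27 ± 0.16, with an exonic minus intronic change of 0.75 ± 0.11 (limma adjusted p = 0.00524). Nudt12, a nucleotide hydrolase with 7 sites, was at −0.17 ± 0.20 (limma adjusted p = 0.687).

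In sheer number of reads, the largest losses in KO cells with a call were in Tnc and Acta2. These counts are not divided by gene length and so rank read numbers, not molecules. Tnc, the matrix glycoprotein tenascin C, had 80362, 138782, 9995 and 10147 normalised exonic counts and fell by 3.39 ± 0.28 (limma adjusted p = 0.00478), with −3.44 ± 0.26 in intronic reads. Acta2, smooth muscle actin, had 97898, 61429, 27400 and 12959 and fell by 2.04 ± 0.41. Among the 10 largest losses, Lgals1 (galectin-1), Tpm4 (a tropomyosin), Thbs2 (thrombospondin 2), Rplp0 (a ribosomal stalk protein) and Col1a2 (a chain of type I collagen) also fell, by 0.88 to 1.30. Eef1a1, Sfrp2 and Col5a2 did not pass, although all 3 were lower in both KO libraries.

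The largest gain with a call was in Oxr1, a gene known for resistance to oxidative damage, with 3270, 3609, 22276 and 24266 counts. It rose by 2.76 ± 0.13 (limma adjusted p = 0.00205), and by 2.59 ± 0.14 in intronic reads. Psat1, an enzyme of serine synthesis, rose by 1.07 ± 0.16, Hspa9, the mitochondrial Hsp70, by 1.02 ± 0.15, and Ftl1, the ferritin light chain, by 0.83 ± 0.18. Cbx5, the heterochromatin protein HP1α, rose by 0.70 ± 0.14 in exonic reads against 0.22 ± 0.13 in intronic reads and has 3 let-7 sites. Cyp1b1 and Atp5a1 also rose, while Spp1 (16217, 25806, 20515 and 65899 counts), Actb and Thbs1 did not pass. Tnc and Oxr1 kept their calls without each library. The other 12 genes called among these 20 lost theirs without KO library 2, and all but Acta2 also without KO library 1. Cbx5 and Ftl1 lost theirs without WT library 2 too, Lgals1 without WT library 1, and Atp5a1 without any of the 4, with limma adjusted p from 0.0505 to 0.278 over these genes. Summed over genes, 5413 were higher by 14.6% of the WT total and 5293 lower by 13.6%, and the 10 largest losses held 14% of all loss against 4.88% for the 10 largest gains.

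Functional gene lists were described by how many tested members rose or fell, beside 9.28% and 7.36% of all genes in exonic reads, and by their median, beside 0.01 over all genes. The lists were drawn up with earlier results of these data known, so they do not support a theme on their own. The medians of the lists lay between −0.41 and 0.45 for lists with 20 or more members tested.

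**Figure D3:**
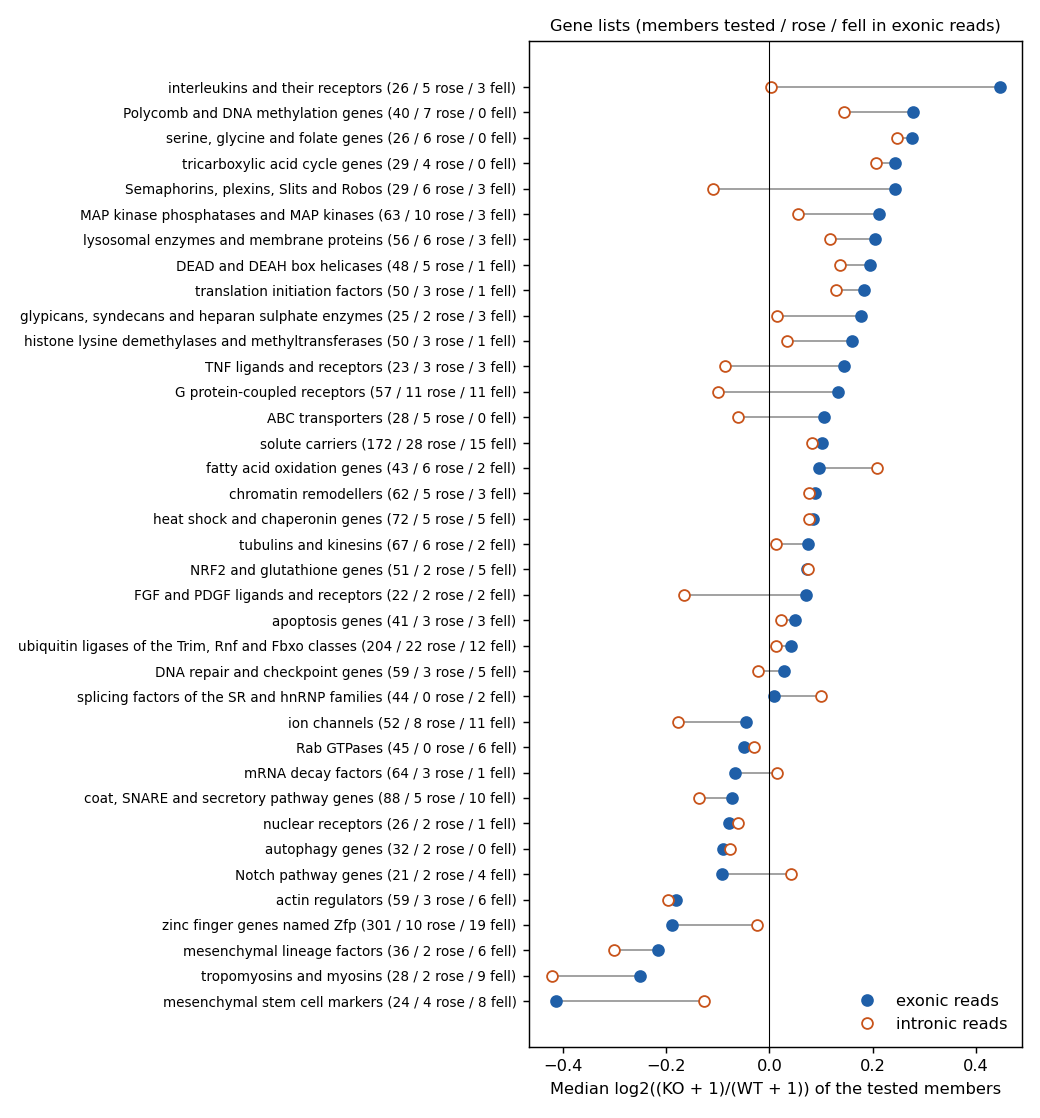
Median log2((KO + 1)/(WT + 1)) of the tested members of gene lists with at least 20 members in exonic and 15 in intronic reads, except 1 list not reported here; filled circles are exonic, open circles intronic, and the labels give members tested, risen and fallen in exonic reads. Interleukins and their receptors lie highest in exonic reads at 0.45 and mesenchymal stem cell markers lowest at −0.41.

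Of 28 tropomyosins and myosins, 9 fell and 2 rose, with a median of −0.25 in exonic and −0.42 in intronic reads. Myl9, a light chain of smooth muscle myosin, had 16953, 12567, 1261 and 1079 counts and fell by 3.64 ± 0.19 (limma adjusted p = 0.0022), with −3.65 ± 0.22 in intronic reads. Tpm1, a tropomyosin, fell by 0.75 ± 0.17, and that call was lost without KO library 1, KO library 2 or WT library 1. Myo7a, an unconventional myosin of sensory hair cells, rose by 2.94 ± 0.23, from 244 and 186 to 1408 and 1906. Leaving out KO library 1 or KO library 2 left 3 and 4 members fallen. Between the WT libraries the list's median differed by 0.11 in exonic and 0.23 in intronic reads.

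Of 59 actin regulators, 6 fell and 3 rose (median −0.18). Cap2, which recycles actin monomers, had 423, 380, 5.50 and 2.07 counts and fell by 6.49 ± 0.49, a fold that rests on few KO reads. Tln2, a talin that links integrins to actin, had 4403, 4794, 1254 and 1329 and fell by 1.83 ± 0.13. Actb, the main cytoplasmic actin, was at 0.12 ± 0.20. Both genes that fell had no overlap between the clones and similar changes in intronic reads, at −5.09 ± 0.30 and −2.09 ± 0.17.

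Of 24 mesenchymal stem cell markers tested, 8 fell and 4 rose, with a median of −0.41 in exonic and −0.13 in intronic reads. Mcam, the surface marker CD146, had 3504, 2456, 329 and 214 counts and fell by 3.46 ± 0.28 (limma adjusted p = 0.00468). Col1a1, a chain of type I collagen, had 6282, 4937, 1010 and 1239 and fell by 2.31 ± 0.18. Vim, the mesenchymal intermediate filament, was at −0.12 ± 0.21. Of 36 factors of mesenchymal lineages 6 fell and 2 rose, among them Msx2, a homeobox factor of bone and skull, which fell by 3.96 ± 0.37 from 184 and 224 to 10.1 and 14.5. Gata4, a zinc finger factor of heart and gut, had 1.89, 1.11, 118 and 131 counts and rose (limma adjusted p = 0.00589), with too few WT reads for a fold, a call lost without either KO library (limma adjusted p up to 0.0819). Tbx15, a T-box factor of limb and skull and the lineage factor with most reads, was at 0.32 ± 0.16 (limma adjusted p = 0.224). In Mcam, Col1a1 and Msx2 no KO library overlapped a WT library. Without KO library 1 or KO library 2, 3 stem cell markers fell in either case and 1 rose.

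The median of the lineage factors was −0.22 between the clones, and −0.25 and −0.41 between the libraries of the WT and of the KO clone. It was 0.03 without WT library 2, 0.01 without KO library 1 and 0.00 at a minimum mean of 200, so its sign differed between these settings. Of 18 Kruppel-like and Sp factors 2 fell and 0 rose by limma, with 0 higher at an unadjusted p under 0.05 and 0 by edgeR. Sp7, the osteoblast factor osterix and also a lineage factor, had 965, 2451, 18.3 and 69.2 counts and fell by 5.38 ± 0.73. Klf8, a Kruppel-like repressor, had 191, 164, 41.3 and 22.7 and fell by 2.49 ± 0.39, with −3.23 ± 0.34 in intronic reads. Sp1, a broadly expressed activator, was at −0.25 ± 0.13. In Sp7 and Klf8 no KO library overlapped a WT library.

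Of 12 integrins tested, the matrix receptors that talins bind, 5 rose. By limma 0 fell, and also 0 at an unadjusted p under 0.05 and 0 by edgeR. Leaving out either KO library left 1 risen. Itgb3, the β3 chain, had 58.5, 56.8, 320.0 and 261 counts and rose by 2.31 ± 0.25, a call lost without KO library 1 (limma adjusted p = 0.0502). Itga5, the α chain of the fibronectin receptor, had 2923, 2078, 5082 and 5168 counts and rose by 1.06 ± 0.19, against 0.39 ± 0.20 in intronic reads. Without either KO library the call of Itga5 was lost, with limma adjusted p up to 0.0977. Itgb1, the β1 chain and the member with most reads, was at 0.08 ± 0.24 with overlapping groups.

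Of 14 gap and tight junction genes tested 5 rose and 3 fell, of 8 immunoglobulin-like neural adhesion genes 2 rose and 2 fell, and of 11 cadherins 2 rose and 2 fell. Cadm1, an immunoglobulin-like adhesion molecule, had 183, 190, 6079 and 6581 counts and rose by 5.08 ± 0.14 (limma adjusted p = 0.000624), with 4.67 ± 0.19 in intronic reads. Gja1, the gap junction protein connexin 43, had 7762, 8091, 3267 and 3004 and fell by 1.34 ± 0.13. Cldn12, a claudin, had 3853, 2725, 9535 and 7807 counts and rose by 1.41 ± 0.21, against 0.25 ± 0.27 in intronic reads. The first 2 differed alike in exonic and intronic reads, while the exonic minus intronic change of Cldn12 was 1.16 ± 0.10. The exonic call of Cldn12 was lost without KO library 1 (limma adjusted p = 0.0666).

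F11r, the junction molecule JAM-A, had 512, 476, 1174 and 1016 counts and rose by 1.14 ± 0.16, a call lost without KO library 1 (limma adjusted p = 0.0861). Ncam1, a neural adhesion molecule, had 6098, 5493, 8274 and 9727 and rose by 0.63 ± 0.15, a call lost without either KO library or WT library 2 (up to 0.267). Cdh11, a cadherin of mesenchymal cells, had 126, 176, 812 and 3129 counts and rose by 3.41 ± 0.63, with KO libraries that lay far apart. Cdh23, a cadherin of sensory hair cells, had 90.5, 125, 0.917 and 1.03 and fell, with too few KO reads for a fold. Fat1, a large protocadherin, had 44836, 44051, 21847 and 31779 and did not pass, at −0.75 ± 0.22. Without KO library 1 or KO library 2, 1 and 2 junction genes rose and 1 fell in either case.

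Polycomb and DNA methylation genes, which set repressive chromatin marks or act on DNA methylation, had a median of 0.28 in exonic and 0.14 in intronic reads. Of 40 tested, 7 rose in exonic reads and 0 fell by limma, with 4 lower at an unadjusted p under 0.05 and 0 by edgeR. In intronic reads 0 of 33 were called by limma or edgeR, with 6 higher and 1 lower at an unadjusted p under 0.05. The exonic minus intronic change rose for 7 and fell for 1. Tet2, which oxidizes methylated cytosine, had 979, 1221, 2350 and 2885 counts and rose by 1.25 ± 0.18 against 0.56 ± 0.20 in intronic reads. Mtf2, a Polycomb accessory subunit, had 2030, 1907, 3106 and 3468 and rose by 0.74 ± 0.13. Dnmt1, the maintenance DNA methyltransferase, had 11090, 10733, 7609 and 8055 and was at −0.48 ± 0.13 (limma adjusted p = 0.0586). Without KO library 1, 1 of the list was called higher by limma and without KO library 2 it was 0. Tet2 lost its call without KO library 2 (limma adjusted p = 0.0635) and Mtf2 without either KO library (up to 0.162).

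Zinc finger genes named Zfp, most of them DNA-binding repressors, had a median of −0.19 in exonic reads of 301 genes and −0.02 in intronic reads of 213. Of the 301, 19 fell and 10 rose, and their median exonic minus intronic change was −0.13. Leaving out each library in turn gave exonic medians of −0.25 to −0.15. Zfp521, a factor of mesenchymal and blood progenitors, had 280.0, 615, 3.67 and 6.2 counts and fell by 6.17 ± 0.52, with −6.08 ± 0.38 in intronic reads. Zfp568, described above, was called in exonic reads and not in intronic reads. Zfp106, the member with most reads, was at 0.21 ± 0.13.

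Rarb, a retinoic acid receptor, had 26.4, 30.1, 788 and 764 counts and rose by 4.74 ± 0.23, with 4.04 ± 0.16 in intronic reads. E2f6, a repressive E2F, had 415, 339, 999 and 1031 and rose by 1.43 ± 0.17. Arid3a, a DNA-binding protein with 4 let-7 sites, had 205, 217, 1242 and 1363 and rose by 2.62 ± 0.16, against 1.28 ± 0.24 in intronic reads. Smarcd3, a subunit of SWI/SNF remodellers found in muscle, had 206, 278, 58.7 and 57.8 and fell by 2.02 ± 0.27. In each of these 4 genes the clones did not overlap.

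Nr6a1, the germ cell nuclear factor, had 168, 237, 3335 and 3081 counts and rose by 4.0 ± 0.21 (limma adjusted p = 0.0022), against 0.68 ± 0.15 in intronic reads. E2f5, an E2F that acts with pocket proteins, had 699.5, 702, 1507 and 1535 and rose by 1.12 ± 0.13, a call lost without either KO library (limma adjusted p up to 0.0587). The members with most reads of these families did not pass. Nr3c1, the glucocorticoid receptor, was at 0.10 ± 0.12, Tfdp1, a partner of E2Fs, at −0.21 ± 0.16, and Chd4, a remodelling ATPase, at 0.15 ± 0.13. Of 26 nuclear receptors 2 rose and 1 fell, of 13 E2F and pocket protein genes 2 rose and 1 fell, and of 62 chromatin remodellers 5 rose and 3 fell.

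Of 7 AP-1 factors tested 2 rose. Atf3, a stress-induced factor, had 114, 114, 523 and 314 counts and rose by 1.82 ± 0.30, and Mafg, a small Maf protein, had 353, 281, 607 and 559 and rose by 0.89 ± 0.19. Fosl2, the member with most reads, was at 0.03 ± 0.12. The call of Atf3 was lost without KO library 1 (limma adjusted p = 0.0888) and that of Mafg without either KO library or WT library 2 (up to 0.2). Of 13 forkhead factors 0 were called by limma or edgeR, with 1 higher and 2 lower at an unadjusted p under 0.05. Foxn3 was at −0.65 ± 0.18, Foxf2 at 0.80 ± 0.31 and Foxp1 at −0.05 ± 0.17.

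Of 50 histone lysine demethylases and methyltransferases 3 rose and 1 fell. Setdb1, a methyltransferase of repressive H3K9 marks, had 2191, 1994, 3234 and 3282 and rose by 0.64 ± 0.13, while Whsc1, the member with most reads, was at −0.02 ± 0.16. Of 48 DEAD and DEAH box helicases 5 rose and 1 fell. Ddx60, a helicase of antiviral responses, had 18.9, 18.9, 101 and 117 counts and rose by 2.46 ± 0.35, with 2.17 ± 0.27 in intronic reads. Ddx50, a nucleolar helicase, had 2741, 2677, 1641 and 1685 and fell by 0.70 ± 0.12, and Ddx17 was at 0.19 ± 0.17. Leaving out either KO library ended all exonic calls of both lists, while some intronic calls of the histone list remained.

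Interleukins and their receptors had an exonic median of 0.45 over 26 genes, the highest among lists with 20 or more genes tested, against 0.00 over 23 genes in intronic reads, and 5 rose and 3 fell. Without KO library 2 the exonic median was 0.22, below the 0.29 of translation initiation factors, and without KO library 1 it was 0.34. In the shorter VEGF list, of 13 genes, the median was 0.48. Il6ra, the receptor chain for interleukin 6, had 129, 105, 623 and 706 counts and rose by 2.5 ± 0.21. Il34, a ligand of the CSF1 receptor, had 57.5, 73.5, 289 and 206 and rose by 1.89 ± 0.30, a call lost without KO library 1 (limma adjusted p = 0.108). Il6st, the shared signalling chain gp130, was at 0.41 ± 0.12 and did not pass (limma adjusted p = 0.0792). Without KO library 1 or KO library 2, 1 and 2 members of the list rose. Of 63 MAP kinases and their phosphatases and partners, 10 rose and 3 fell (median 0.21 in exonic and 0.05 in intronic reads). Without KO library 1 or KO library 2, 1 and 2 of them rose. Dusp5, a phosphatase of nuclear ERK, had 84.8, 88.0, 299 and 384 counts and rose by 1.96 ± 0.24, a call lost without KO library 2 (limma adjusted p = 0.06). Sos2, an exchange factor for Ras, had 517, 586, 1226 and 1283 and rose by 1.19 ± 0.15, against 0.22 ± 0.14 in intronic reads, and lost its call without either KO library (limma adjusted p up to 0.0576). Mapk6, the kinase ERK3 and the member with most reads, was at 0.08 ± 0.22.

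Of 57 G protein-coupled receptors, 11 rose and 11 fell in exonic reads, a larger share of the list than of all genes in both directions. The shares are not matched for level, and 57 of the 256 receptors listed reached the minimum. Without either KO library fewer of them rose and fewer fell. In intronic reads 2 of 48 rose and 7 fell. Gpr141, an orphan receptor, had 16, 15.6, 967 and 688 counts and rose by 5.6 ± 0.28. Gpr153, also an orphan, had 460, 494, 31.2 and 32.0 counts and fell by 3.87 ± 0.24 in exonic reads against −2.02 ± 0.30 in intronic reads. Gpr116, an adhesion receptor and the member with most reads, was at 0.04 ± 0.12. Dock11, an exchange factor for Cdc42, had 1227, 1074, 51.3 and 55.8 and fell by 4.40 ± 0.20, with −4.44 ± 0.25 in intronic reads. Cdc42 itself was at −0.07 ± 0.14 with overlapping groups.

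Of the 13 VEGF and angiopoietin genes 1 rose in exonic and 2 in intronic reads. Vegfc, a growth factor of lymphatic vessels, had 35.8, 55.7, 373 and 387 counts and rose by 3.06 ± 0.30. Vegfa, the main growth factor of blood vessels, had 2691, 3614, 4888 and 6122 exonic counts and did not pass there, at 0.81 ± 0.20 (limma adjusted p = 0.052). In intronic reads Vegfa rose, a call lost without either KO library. The receptor Nrp2 did not pass in exonic reads, at 1.05 ± 0.28 (limma adjusted p = 0.0615). Of 29 semaphorins, plexins, Slits and Robos 6 rose and 3 fell. Srgap1, which acts downstream of Slit and Robo, had 20.7, 31.2, 207 and 255 counts and rose by 3.13 ± 0.34. Unc5c, a netrin receptor, had 313, 190.5, 2.75 and 3.10 counts and fell, with too few KO reads for a fold. Sema3a, a secreted semaphorin, was at 0.46 ± 0.39 with overlapping groups.

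Of 22 FGF and PDGF ligands and receptors 2 rose and 2 fell. Pdgfb, a PDGF chain, had 8.48, 10.0, 350.2 and 170.4 counts and rose by 4.58 ± 0.47. Fgf21, a hormone of fasting, had 1.89, 0.0, 136 and 78.5 and rose, with too few WT reads for a fold, a call lost without either KO library (limma adjusted p up to 0.103). Fgf7, the member with most reads, was at 0.63 ± 0.37. Of 23 TNF ligands and receptors 3 rose and 3 fell. Tnfrsf1b, the TNF receptor TNFR2, had 941, 912, 2643 and 3650 counts and rose by 1.74 ± 0.19. Tnfrsf11b, the decoy receptor osteoprotegerin, had 702, 125, 1.83 and 2.07 and fell, with too few KO reads for a fold, and Tnfrsf12a was at 0.77 ± 0.50. Of 25 glypicans, syndecans and heparan sulphate enzymes 2 rose and 3 fell. Xylt1, which starts the sugar chains of proteoglycans, had 122.6, 166, 8.25 and 8.26 counts and fell by 3.96 ± 0.41, with −3.98 ± 0.20 in intronic reads. Hs3st1, a heparan sulphotransferase, had 33.0, 33.4, 194 and 244 and rose by 2.68 ± 0.29, a call lost without KO library 2 (limma adjusted p = 0.055). Tgfbr3, the TGF-β co-receptor betaglycan, was at 1.34 ± 0.45.

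Of 172 solute carriers 28 rose and 15 fell (median 0.10 in exonic and 0.08 in intronic reads), shares above and near those of all genes. Slc7a11, the cystine importer, had 417, 282, 4662 and 3775 counts and rose by 3.61 ± 0.23. Slc40a1, the iron exporter ferroportin, had 122, 167, 1219 and 1206 and rose by 3.08 ± 0.21. Slc38a2, a neutral amino acid transporter and the member with most reads, was at 0.34 ± 0.13 and did not pass. Of 28 ABC transporters 5 rose, among them Abca3, a lipid pump, by 2.61 ± 0.23 from 68.8 and 56.8 to 376 and 399. Abca8b, another lipid pump, had 37.7, 46.8, 226 and 266 and rose by 2.52 ± 0.28, a call lost without KO library 2 (limma adjusted p = 0.052), while Abce1, a ribosome recycling factor, was at −0.13 ± 0.29. Of 52 ion channels 8 rose and 11 fell. Kcnk5, a leak potassium channel, had 317, 340, 7.33 and 9.29 counts and fell by 5.15 ± 0.34. Gria3, an AMPA receptor subunit, had 618, 518, 38.5 and 40.3 and fell by 3.81 ± 0.23, with −3.54 ± 0.13 in intronic reads, and Clic4 was at 0.14 ± 0.13. Solute carriers that rose numbered 6 and 7 without KO library 1 or KO library 2.

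Of 45 Rab GTPases 6 fell and 0 rose by limma, with 3 higher at an unadjusted p under 0.05 and 0 by edgeR. In all, 2 and 1 fell without KO library 1 or KO library 2. Rab27b, a Rab of secretory granules, had 192, 182, 43.1 and 22.7 counts and fell by 2.54 ± 0.39. Rab39b, a Rab of neurons, had 313, 351, 130.2 and 96.0 and fell by 1.56 ± 0.25, a call lost without KO library 2 (limma adjusted p = 0.0756), and Rab14 was at 0.43 ± 0.13. Of 88 coat, SNARE and secretory pathway genes 10 fell and 5 rose. Sar1a, the GTPase that starts COPII coats, had 10134, 9694, 4752 and 4857 and fell by 1.04 ± 0.12, a call lost without either KO library (limma adjusted p up to 0.0666). Vamp5, a SNARE protein of muscle, had 613, 639, 217 and 228 and fell by 1.49 ± 0.17. Copa, a subunit of COPI coats, was at −0.35 ± 0.13. Among 56 lysosomal genes 6 rose and 3 fell. Ctsh, the protease cathepsin H, fell by 2.90 ± 0.20 from 632 and 701 to 81.6 and 96.0, and Manba, a β-mannosidase, rose by 1.36 ± 0.15 from 524 and 594 to 1378 and 1489. Lamp1, a main protein of the lysosomal membrane, was at 0.40 ± 0.15.

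Of 32 autophagy genes 2 rose, and 0 fell by limma, with 4 lower at an unadjusted p under 0.05 and 0 by edgeR. Atg16l1, which helps to place LC3 on membranes, had 1060, 859, 1942 and 1885 counts and rose by 1.0 ± 0.16, against 0.29 ± 0.21 in intronic reads. Sqstm1, the cargo receptor p62, had 4019, 5411, 8859 and 8820 and rose by 0.92 ± 0.18, with 0.98 ± 0.15 in intronic reads. Of 67 tubulins and kinesins 6 rose and 2 fell. Kif21a rose by 1.18 ± 0.17 and Kif26b by 1.66 ± 0.29, while Tubb5, a tubulin, was at −0.04 ± 0.24. Kif26b lost its call without KO library 2 (limma adjusted p = 0.0645), and Atg16l1, Sqstm1 and Kif21a theirs without either KO library (up to 0.123). Of 8 intermediate filament genes 1 fell, which was Nes, a call lost without either KO library. Synm was at −1.03 ± 0.29 (limma adjusted p = 0.0699).

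Of 26 serine, glycine and folate genes 6 rose, and 0 fell by limma, at an unadjusted p under 0.05 or by edgeR (median 0.28 in exonic and 0.25 in intronic reads). Between the libraries of 1 clone the exonic median differed by 0.23 in WT and 0.14 in KO. Phgdh, the first enzyme of serine synthesis, had 2789, 2992, 8441 and 8703 counts and rose by 1.57 ± 0.12. Cth, which makes cysteine from cystathionine, had 289, 201, 1989 and 1582 and rose by 2.88 ± 0.24. Psat1, the next enzyme after Phgdh, is given above. Leaving out KO library 1 or KO library 2 left 3 and 4 members risen. Without WT library 2 or KO library 1 the intronic median of this list turned to −0.15 and −0.00, and without WT library 2 its exonic median was 0.05. Of 29 tricarboxylic acid cycle genes 4 rose (median 0.24), while leaving out KO library 1 ended all 4 calls and leaving out KO library 2 left 1 risen. Pdhb, a subunit of pyruvate dehydrogenase, rose by 1.01 ± 0.16 from 978 and 960 to 2167 and 1758, a call lost without KO library 1 (limma adjusted p = 0.104). Suclg2, a subunit of succinyl-CoA synthetase, had 926, 857, 1499 and 1398 and rose by 0.70 ± 0.14, a call lost without either KO library or WT library 2 (up to 0.192), and Pdha1 was at 0.03 ± 0.13. Of 43 fatty acid oxidation genes 6 rose and 2 fell. Acsl5, which activates fatty acids, rose by 1.04 ± 0.18 from 4247 and 3207 to 7922 and 7233, and Acad11, an acyl-CoA dehydrogenase, fell by 0.94 ± 0.16. Leaving out either KO library ended all of these calls.

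Chaperones split, with 5 risen and 5 fallen of 72. Hspa4l, an Hsp110-like chaperone, had 1299, 1302, 3626 and 3301 counts and rose by 1.41 ± 0.13. Hspb6, a small heat shock protein of muscle, had 371, 495, 105 and 112 exonic counts and fell by 1.97 ± 0.23, while its intronic counts were 55.0, 65.7, 64 and 69.0 with a change of 0.14 ± 0.25. Its exonic minus intronic change was −2.12 ± 0.20 (limma adjusted p = 0.000635). Hsp90ab1, the constitutive cytosolic Hsp90, was at 0.38 ± 0.17. Hspb6 was thus called in exonic reads and not in intronic reads, with a loss.

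The lists of splicing factors, mRNA decay factors and translation initiation factors held few exonic calls. Of 44 splicing factors of the SR and hnRNP families 2 fell and 0 rose by limma, with 4 higher at an unadjusted p under 0.05 and 0 by edgeR. For 25 of the 44 the confidence interval lay within 1.5-fold, beside 21.7% of all genes. That share was 0.671% of genes with a mean of 50 to 200 and 33.7% of genes at 5000 or more. The list was not matched for level. Srsf1, the member with most reads, had 22007, 16647, 20018 and 18590 counts and was at 0.01 ± 0.18. The 2 that fell are RNA-binding proteins with tissue-restricted roles, Khdrbs3 (641, 441, 10.1 and 2.07 counts) and Celf2 (236, 139, 38.5 and 27.9), the latter with its call lost without KO library 2 (limma adjusted p = 0.0624). Of 64 mRNA decay factors 3 rose and 1 fell. Dcp2, the decapping enzyme, had 2712, 2308, 6247 and 5674 and rose by 1.25 ± 0.14, with 0.77 ± 0.14 in intronic reads. Rc3h2, the roquin-2 protein that marks mRNAs for decay, had 5423, 4900, 9325 and 8279 and rose by 0.77 ± 0.14, against 0.26 ± 0.12 in intronic reads, and Cnot1, the scaffold of the CCR4-NOT complex, was at −0.15 ± 0.13. Of 50 translation initiation factors 3 rose and 1 fell. Eif3c, a subunit of eIF3, had 7243, 7164, 12766 and 12281 counts and rose by 0.80 ± 0.12. Eif1b had 1123, 876, 489.6 and 417 and fell by 1.13 ± 0.19, and Eif4g2 was at 0.27 ± 0.15. Without either KO library the calls of Rc3h2, Eif3c and Eif1b were lost (limma adjusted p from 0.0671 to 0.163).

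The medians of whole chromosomes differed between the clones. Gene symbols were placed on chromosomes of RefSeq GRCm38.p6 for 10646 of 10706 exonic and 9888 of 10215 intronic genes. In exonic reads the lowest medians were −0.35 on chromosome 9 (616 genes), −0.27 on chromosome 10, −0.22 on chromosome 4 and −0.20 on chromosome 6. The highest were 0.24 on chromosome 3 (528 genes), 0.20 on chromosome 12 and 0.19 on chromosome 14. Only 20.6% of chromosome 9 genes were higher in KO cells, against 70.5% of chromosome 3 genes and 50.6% of all. Of the chromosome 9 genes 98 fell and 19 rose, and of the chromosome 3 genes 95 rose and 26 fell.

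Intronic reads gave −0.34 on chromosome 9 and 0.25 on chromosome 3, and all 20 chromosomes had the same sign in both kinds of reads. The standard deviation of the 20 medians was 0.17 in exonic and 0.17 in intronic reads between the clones, against 0.04 and 0.02 between the WT libraries and 0.03 and 0.02 between the KO libraries. Across the 4 pairs of a KO with a WT library the exonic median of chromosome 9 stayed between −0.36 and −0.33 and that of chromosome 3 between 0.20 and 0.33. Genes without a call showed it too, with a median of −0.28 on chromosome 9 and 0.17 on chromosome 3. After each gene was centred on the median of its chromosome, 1375 exonic genes were called, of which 1255 were among the 1782. DNA was not measured here, and whether the clones differ in the copy number of these chromosomes was not tested.

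**Figure D4:**
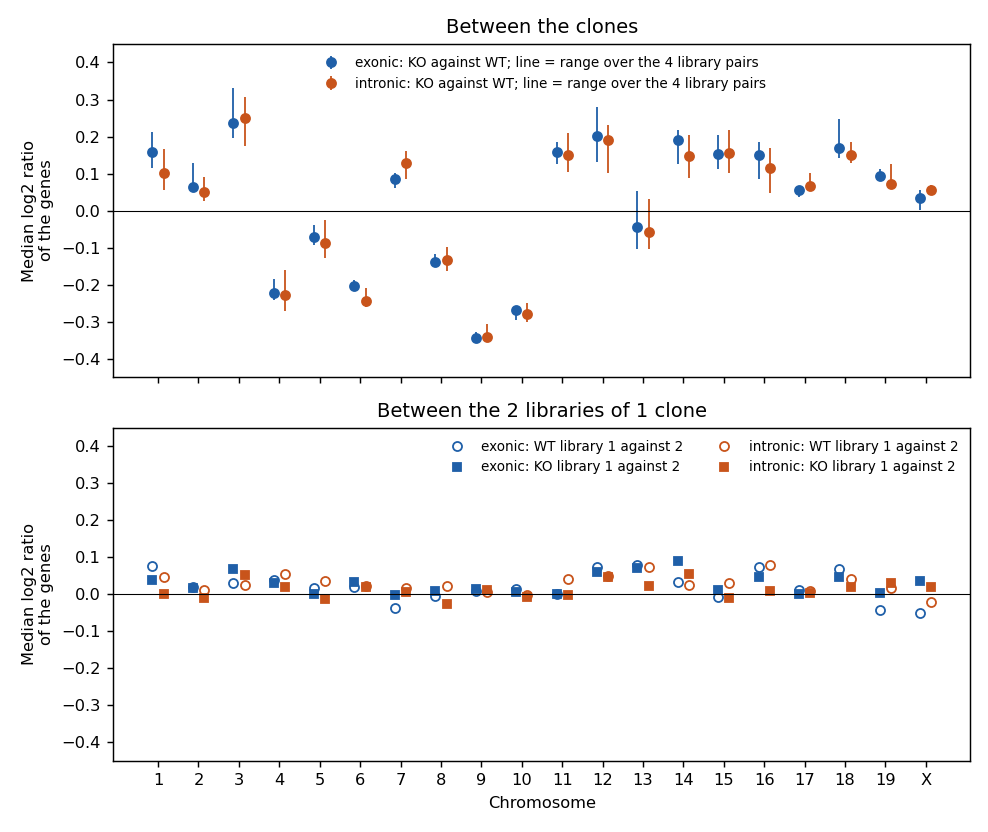
Median log2 ratio of the genes of each chromosome in exonic (blue) and intronic reads (orange); the upper panel compares KO with WT, with lines over the 4 pairs of libraries, and the lower panel the libraries of each clone with each other on the same scale. Between the clones the medians spread from −0.35 on chromosome 9 to 0.25 on chromosome 3, and between libraries of 1 clone they stay within −0.05 and 0.09.

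The vector-transfected WT cells, also with 2 libraries, allow these medians to be set beside a second set of WT cells. Their tables were normalised separately, so each library was scaled to its own sum of gene reads and no test was made. KO against vector gave −0.30 on chromosome 9, −0.36 on chromosome 10, −0.20 on chromosome 4 and 0.33 on chromosome 3 in exonic reads, each with the sign seen against untransfected WT. On chromosome 12 it gave −0.19, where KO against untransfected WT, scaled the same way, gave 0.18. Vector cells stood 0.33 above untransfected WT there. Chromosome 8 also turned, from −0.15 to 0.09 at this scaling, and X from 0.03 to −0.00, a difference near 0 in both. Vector against untransfected WT had a standard deviation over chromosomes of 0.12, larger than that between libraries of 1 clone and smaller than the 0.17 between KO and WT. Against vector the factor-treated WT cells had standard deviations of 0.05 with Pbx3, 0.12 with Sox9 and 0.14 with Tead4, so such spreads also occur within WT cells. The labels do not say how the vector cells and the untransfected cells were related beyond their genotype.

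Neighbouring genes were also read in windows of 20 along each chromosome, in intronic reads. Over 9508 windows the 5th and 95th percentiles of the window medians were −0.36 and 0.27. The highest window lay on chromosome 12 from Grhl1 to Cog5, with a median of 0.87, 19 of 20 genes higher and 6 risen, and its medians over the 4 pairs of libraries were 0.58 to 1.05. In exonic reads its genes had a median of 0.82. Kidins220, a scaffold of neurotrophin signalling and the gene with the highest level in the window, had 2442, 2356, 5681 and 4960 intronic counts and rose by 1.15 ± 0.14, with 1.14 ± 0.12 in exonic reads. Dld, a subunit of several mitochondrial dehydrogenases, had 1085, 1107, 2550 and 2527 exonic counts and rose by 1.21 ± 0.12. Pxdn, a matrix peroxidase, rose by 2.28 ± 0.18 in exonic reads, from 1877 and 1573 to 7339 and 9490. Dld and Pxdn were chosen after their values were seen. In intronic reads the calls of all 3 were lost without either KO library, with limma adjusted p from 0.058 to 0.251. The next highest window lay on chromosome 3 from 4932438A13Rik to Ccrn4l, at 0.53 with 5 risen, and holds Slc7a11. After it came a window on chromosome 12 from Hbp1 to Dnajb9, at 0.50 with 1 risen and 1 fallen. The genes with most intronic reads in these windows, Spata5 at 0.63 ± 0.35 and Ifrd1 at 0.92 ± 0.32, did not pass.

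The lowest windows lay on chromosomes 6, 4 and 9. That on chromosome 6, from Col1a2 to Ica1, had a median of −0.64 with 15 of 20 genes lower, 3 fallen and 1 risen. Its medians over the 4 pairs of a KO with a WT library were −0.64 to −0.30. It holds the neighbouring imprinted genes Sgce and Peg10, chosen after their values were seen, which went opposite ways. Sgce, a sarcoglycan, had 1128, 1185, 622 and 651 exonic counts and fell by 0.86 ± 0.14. Peg10, a gene derived from a retrotransposon and active in placenta, had 2222, 2296, 4833 and 8080 and rose by 1.47 ± 0.26. The exonic call of Sgce was lost without either KO library (limma adjusted p up to 0.12).

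The window on chromosome 4, from Alad to D4Bwg0951e, had a median of −0.62 with 18 of 20 genes lower and 8 fallen. It holds Tnc and Pappa, described above, and Col27a1, a fibrillar collagen of cartilage, which fell by 3.83 ± 0.28 in exonic reads from 1107 and 1263 to 64.2 and 105. Ptprd, a receptor tyrosine phosphatase in the same window, fell by 1.69 ± 0.18 from 1750 and 1457 to 542 and 449. These 2 genes were also chosen after their values were seen. The window on chromosome 9, from Dopey1 to 1190002N15Rik, had a median of −0.59 with 16 of 20 genes lower and 2 fallen, including Ctsh. Plod2, a collagen lysyl hydroxylase and the member with most intronic reads, was at 0.10 ± 0.15 there. In exonic reads the genes of this last window had a median of −0.24.

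**Figure D5:**
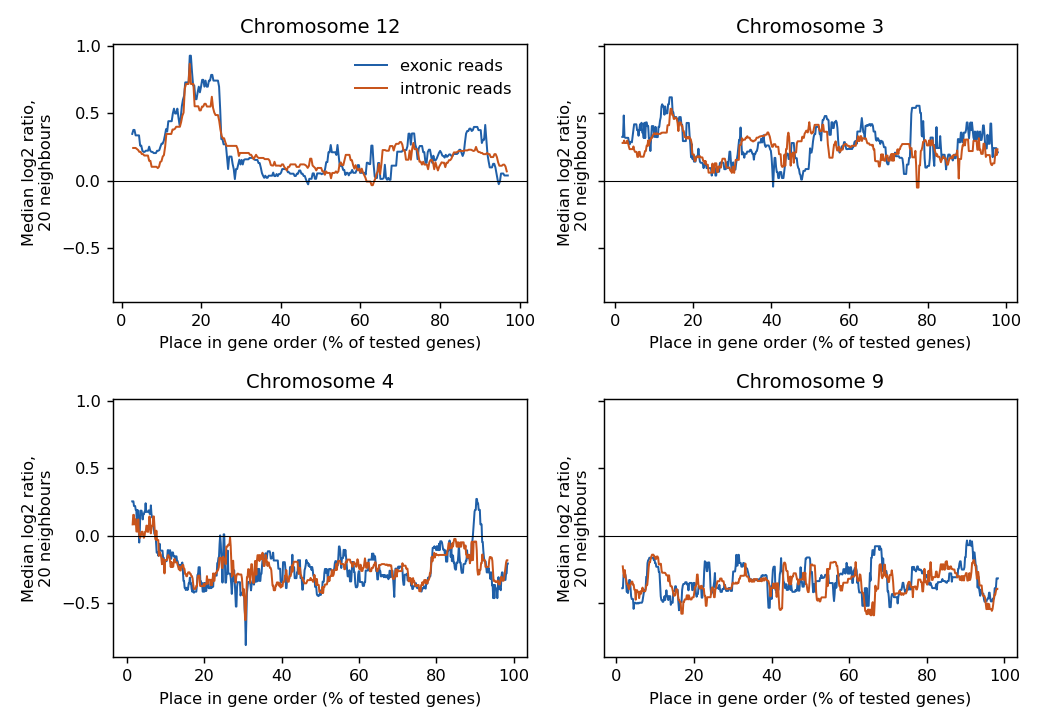
Median log2 ratio, KO against WT, of 20 neighbouring genes along chromosomes 12, 3, 4 and 9 in exonic (blue) and intronic reads (orange), against the place of the window in the order of tested genes. Chromosome 12 has a peak of 0.87 in intronic reads in the left part, while chromosome 9 lies below 0 along its whole length.

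The 3 factor comparisons share no library with the Dicer tables, although they share their vector controls with each other. Over genes measured in both, the correlation of the exonic log2 ratio with that of KO against WT was r = 0.22 for Pbx3, 0.01 for Sox9 and 0.25 for Tead4, as a description across genes, which are not independent. The factor comparisons had fewer large differences, with 0.89%, 2.26% and 3.09% of genes at least 2-fold apart. Of 538 genes at least 2-fold lower in KO and measured with Tead4, 87 (16.2%) were at least 2-fold lower in Tead4 cells against 1.86% of all 9773 genes. Of the 538, 30 (5.58%) were at least 2-fold higher against 1.23%. Of 404 genes at least 2-fold higher in KO, 43 (10.6%) were at least 2-fold higher in Tead4 cells against 1.23%, and 13 (3.22%) at least 2-fold lower against 1.86%. With Sox9, of 535 genes lower in KO 8.79% were at least 2-fold higher and 5.23% at least 2-fold lower, against 1.56% and 0.703% of all 9670 genes. Of 391 genes higher in KO, 8.95% were at least 2-fold higher and 2.56% lower in Sox9 cells. With both factors all of these shares were above those of all genes, in both directions, and the difference between the factors was not tested.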

How the data were processed

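Total RNA from the Dicer KO and Dicer WT clones was depleted of ribosomal RNA and sequenced with strand, per the labels' protocols. Bowtie2, mm9 and DESeq 1.10.1 are named per the submitters' processing notes. In the deposited tables stand DESeq group means as a signal in normalised counts, and DESeq p-values by the authors. Those means are sums of whole reads divided by size factors, so 2 libraries per group were recovered, with a tolerance of 1e-09 and 0 columns without a group. The depth is that of the recovered reads and intervals cover these libraries only. limma 3.58.1 (R 4.3.3) with a mean-variance trend was fitted to log2(normalised count + 1) of all genes with a mean of at least 50. P-values were adjusted by Benjamini-Hochberg. The fit was tried on simulated libraries drawn independently of each other. They lack the difference between libraries 1 and 2 that WT and KO share here, so the fit was not tested under it. edgeR 4.0.16 on the recovered reads, other minimums, scalings and omitted libraries were alternatives. Tables were made with Python 3.11.15, pandas 2.3.3, numpy 2.4.6 and scipy 1.17.1, and figures with matplotlib 3.10.9.

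The text names, in the lists it describes, the 2 members with the smallest adjusted p and the member with most reads, the 10 largest gains and losses, the ends and top gene of each window, and Dicer1. In 2 lists and in the markers of other cell types not all of these are printed, a choice made with values seen. Genes outside this rule are said to be so. Members and lists were chosen with earlier results of these data known. The microRNAs miR-145a-5p, miR-143-3p, miR-1a-3p, miR-122-5p and miR-124-3p were not analysed here. No coordinates are given, since the reference is GRCm38 and the files mm9.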

Additional observations from a re-analysis of the deposited data

How the results depend on the processing

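Settings with library order, edgeR, centring by chromosome, classes of UTR length or a trend on the mean difference were chosen after seeing the data. Leaving out each library in turn gave 535 to 1908 exonic calls (1782 with all), 162 to 955 intronic calls (665) and 350 to 749 calls of the exonic minus intronic change (657), with the low values without a KO library. It gave 1380 to 1502 exonic and 931 to 1058 intronic genes at least 2-fold apart. Over all 53 lists, exonic and intronic together, 57 to 65 medians were above 0 (63). With library order as a term, a hint from the data and not the design, the calls were 5052 exonic, 3112 intronic and 2242 for the difference, and edgeR with that term gave 4749 and 3481. The interval then lay within 1.5-fold for 4627 exonic and 4783 intronic genes. The opposite pairing of exonic and intronic libraries gave 0 calls by limma, a fit without a trend 314 and a trend on the mean difference 369. A minimum mean of 200 gave 377 intronic calls, and 859 exonic and 509 intronic genes at least 2-fold apart, and a minimum of 10 gave 1500 intronic ones, since fewer or more genes were tested. The let-7 excess of 0.09 was 0.139 with the longer sites only, and 0.078, 0.0741 and 0.0561 in the short, middle and long UTRs. The lowest window, at −0.64, lay on chromosome 6, and its genes had an exonic median of −0.56. In windows of 10 the lowest was another one, on chromosome 4, at −1.10. In exonic reads the lowest also lay on chromosome 4, at −0.81. Apart from thinner windows and sites, the cause of these shifts was not tested. The counts above have no direction. The lineage-factor exonic median and the serine intronic median changed sign when a library was left out. Under scalings, minimums and omitted libraries 4 to 21 of 97 list medians changed sign, with the shortest lists left out. Of 40 chromosome medians 0 did under 3 settings, which left out no library. Over the 4 pairs of a KO with a WT library, the chromosome 13 median ranged from −0.10 to 0.05 in exonic and from −0.10 to 0.03 in intronic reads. edgeR on the recovered reads called 1767 exonic and 624 intronic genes, and the authors' deposited adjusted p-values 1501 and 667. Low reads limit genes under 200 normalised exonic counts, of which 10 of 1490 had an interval within 1.5-fold. The labels give no replicate numbers to pair, and library order comes from the recovery alone. The differences between libraries 1 and 2 of WT and KO correlated at r = 0.67 over 8764 genes in exonic reads and at −0.69 over 7048 in intronic reads, the latter before the intronic KO libraries were swapped to match the exonic ones. The fit with that term is the one with library order.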

Other observations

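Further lists, in exonic reads. Of 204 ubiquitin ligases and related genes 22 rose and 12 fell (median 0.04). Trim6, a ubiquitin ligase, rose by 3.28 ± 0.28. Usp13, a deubiquitinase, had 287, 236, 2.75 and 3.10 counts and fell, with too few KO reads for a fold, and Usp9x was at 0.31 ± 0.13. Of 59 DNA repair and checkpoint genes 3 rose and 5 fell. Ercc5, a nuclease of excision repair, fell by 1.07 ± 0.14 and Mgmt, which removes alkyl groups from DNA, by 1.99 ± 0.28, from 254.5 and 363 to 68.8 and 83.7, while Ddb1 was at −0.04 ± 0.14. The call of Mgmt was lost without KO library 1 (limma adjusted p = 0.0567) and that of Ercc5 without either KO library (up to 0.0776).

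Of 41 apoptosis genes 3 rose and 3 fell, with Bok, a BCL2 family member, lower in both KO libraries at 1999, 1921, 558 and 454 counts. Bmf, a BH3-only protein, had 51.9, 184, 783 and 1999 and rose by 3.66 ± 0.71, a call lost without KO library 2 (limma adjusted p = 0.0712), and Birc6 was at 0.47 ± 0.16. Of 51 NRF2 and glutathione genes 2 rose and 5 fell, although the cystine importer Slc7a11, which feeds glutathione, rose. Gpx7, a glutathione peroxidase of the endoplasmic reticulum, had 508, 624, 15.6 and 33.0 and fell by 4.57 ± 0.41, and Sod3, the extracellular superoxide dismutase, had 159, 235, 5.50 and 7.23 and fell by 4.73 ± 0.43. Prdx1, the member with most reads, was at −0.11 ± 0.13. Of 21 Notch pathway genes 2 rose and 4 fell. Dtx4, a Deltex ligase of the pathway, had 219, 316, 1084 and 986 counts, Hey2, a Notch target, fell by 4.31 ± 0.52 from 158 and 93.6 to 6.42 and 4.13, and Notch2 was at 0.08 ± 0.23.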
